A study of Mus musculus with 4 samples.

Results

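The genes described here are the heart-expressed small heat shock protein genes Hspb1, Hspb2, Hspb3, Hspb6, Hspb7, Hspb8 and Cryab, with Bag3, the gene of their partner co-chaperone. They were chosen by name, with earlier results of these data known. All 8 matched the 21900 protein-coding gene models of the mouse assembly GRCm38.p6 (mm10). For each gene, peaks of ATF4 pull-down were collected at the ends of the gene model and within 10 kb of it. ATF4 is a leucine zipper factor that cells make when translation is slowed under stress. The chromatin came from heart ventricle of mice aged 4 weeks, with 2 ATF4 pull-down samples titled ATF4-bio1 and ATF4-bio2 (replicates 1 and 2 below) and 2 input samples with no pull-down, whose values are not analysed here. Crosslinked and sonicated chromatin was precleared and captured with streptavidin, and the antibody field of both samples reads AAV with no explanation, so the labels do not say whether the captured ATF4 was the heart's own or delivered by a vector. Genotype, strain and the number of animals are not given in the labels, nor whether the replicates came from separate animals, so the spread between them may be technical.

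Small heat shock proteins share an alpha-crystallin domain and assemble into oligomers that hold partly unfolded proteins without using ATP. In heart muscle they sit on desmin, titin and filamin at the Z-disc, and mutations in CRYAB, HSPB8 and BAG3 cause human myopathies. BAG3 couples HSPB8 and its client to an Hsp70 chaperone and passes the client to autophagy, a route called chaperone-assisted selective autophagy. Heat shock factors switch on many of these genes through a repeated GAA and TTC element, while ATF4 binds a composite element of the C/EBP and ATF type.

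A value called fold below is the authors' fold enrichment of a peak over a background. The series-wide list gives it directly, and for each replicate list it was read from peaks that both lists hold. Replicate folds under 7.5, the lowest fold in the series-wide list, were continued downward in even steps. A few others were filled between steps. Such values are estimates and not folds that the authors gave. Folds climbed in even steps of 0.500 in replicate 1 and 0.443 in replicate 2, which is a fold over a constant background and not a ratio to input. A peak marks captured chromatin and is no proof that ATF4 sat there, and depth per sample is unknown, since the lists hold no read counts. The lists held 41639 series-wide peaks, 78746 peaks in replicate 1 and 88812 in replicate 2, with median folds of 13.7, 8.50 and 7.98. With 2 samples of 1 group and no peaks from input, no test between groups was possible, and the counts below stand beside the share over all protein-coding genes. As a check of the tissue label, gene-end peaks of the series-wide list were counted at cell type markers. They lay at 5 of 5 cardiomyocyte, 1 of 4 endothelial, 1 of 4 fibroblast and 0 of 3 neuron markers, against 34.9% of all protein-coding genes. In replicate 1 these counts were 5, 3, 2 and 1, against 48.2%. In replicate 2 they were 5, 3, 4 and 1, against 50.2%. The median replicate folds were 59.5 and 49.6 over the cardiomyocyte markers and at most 12 over each other list. Ryr2 alone among the cardiomyocyte markers was low, with 7.5-fold in replicate 1 and 9.75-fold in replicate 2. The medians over all genes with a gene-end peak were 10 and 10.2. The fibroblast marker with a series-wide gene-end peak, Dcn, had 15.5-fold. In the gene or within 10 kb, series-wide peaks lay at 5, 3, 2 and 3 markers, against 61.1% of all genes. The strongest of these at an endothelial, fibroblast or neuron marker had 35.5-fold, at Tek. The chromatin was from bulk tissue, so a signal from more cells and a stronger signal per cell cannot be told apart.

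The promoter table of RefSeq (GRCm38.p6) held 6 of the 8 genes, with 7 windows of 300 bases, since Hspb6 has a pair of starts. Each window runs from 250 bases before the gene start to 50 after it. The 4 windows below that hold the 8 bases GAAGTTTC are shown because this stretch recurs among them, and the window of Hspb7 because it lies in a gap between peaks. Capitals mark matches to GAANNTTC, the core of the heat shock element. The windows are chr7:128523333-128523632 on the plus strand for Bag3, chr5:116422815-116423114 on the minus strand for Hspb8, chr5:135887669-135887968 on the plus strand for Hspb1, chr7:30553051-30553350 on the plus strand for the second start of Hspb6, and chr4:141420529-141420828 on the plus strand for Hspb7.
Bag3: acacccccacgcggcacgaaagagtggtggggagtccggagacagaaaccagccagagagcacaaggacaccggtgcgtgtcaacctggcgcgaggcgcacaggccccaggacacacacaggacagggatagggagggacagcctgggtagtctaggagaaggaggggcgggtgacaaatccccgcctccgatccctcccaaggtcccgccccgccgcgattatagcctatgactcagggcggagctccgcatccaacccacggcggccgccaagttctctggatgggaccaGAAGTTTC
Hspb8: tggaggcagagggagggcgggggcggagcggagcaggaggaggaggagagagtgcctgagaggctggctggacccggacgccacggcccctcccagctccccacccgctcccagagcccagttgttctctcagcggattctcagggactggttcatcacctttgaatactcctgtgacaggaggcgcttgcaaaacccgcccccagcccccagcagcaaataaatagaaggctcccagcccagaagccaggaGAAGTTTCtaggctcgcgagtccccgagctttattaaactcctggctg
Hspb1: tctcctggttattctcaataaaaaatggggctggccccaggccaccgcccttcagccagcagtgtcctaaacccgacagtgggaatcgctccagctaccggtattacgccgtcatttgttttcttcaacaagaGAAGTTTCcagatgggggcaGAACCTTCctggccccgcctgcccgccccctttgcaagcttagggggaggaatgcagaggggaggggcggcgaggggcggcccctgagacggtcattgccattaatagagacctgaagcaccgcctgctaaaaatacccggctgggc
Hspb6: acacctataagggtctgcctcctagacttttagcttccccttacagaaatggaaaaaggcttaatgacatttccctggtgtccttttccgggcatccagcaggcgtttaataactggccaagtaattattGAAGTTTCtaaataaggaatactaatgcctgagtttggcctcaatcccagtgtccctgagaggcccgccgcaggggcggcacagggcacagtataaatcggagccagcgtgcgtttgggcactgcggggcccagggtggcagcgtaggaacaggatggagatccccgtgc
Hspb7: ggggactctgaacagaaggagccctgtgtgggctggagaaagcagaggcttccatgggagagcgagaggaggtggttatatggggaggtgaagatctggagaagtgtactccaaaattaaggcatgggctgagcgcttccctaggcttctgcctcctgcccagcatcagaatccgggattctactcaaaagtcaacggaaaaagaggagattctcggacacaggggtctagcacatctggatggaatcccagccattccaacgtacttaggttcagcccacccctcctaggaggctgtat

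The core GAANNTTC was found in 5 of the 7 windows, against 7.86% of the 32851 promoter windows of the table (both strands searched). With positions counted from the gene start, negative before it and with no position 0, it began in Hspb1 at −117 and −97. It began at −120 from the second start of Hspb6, at −224 in Hspb3, at base 3 of Hspb8 and at base 43 of Bag3. In Bag3, Hspb8, Hspb1 and Hspb6 one of the matches read GAAGTTTC, which 1.21% of all windows held on either strand. This stretch was singled out after the sequences were seen. Heat shock genes are known for this element, so its presence describes the genes chosen and was not measured by the pull-down. Neither TGATGCAA nor the looser TGATGNAA, forms of the composite C/EBP and ATF element of which the second includes the first, was found in any of the 7 windows, and nor was the cyclic AMP element TGACGTCA. Over all windows these letters occurred in 0.895%, 3.97% and 1.79%. The search covered only these bases, and several summits lay outside them.

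**Figure D1:**
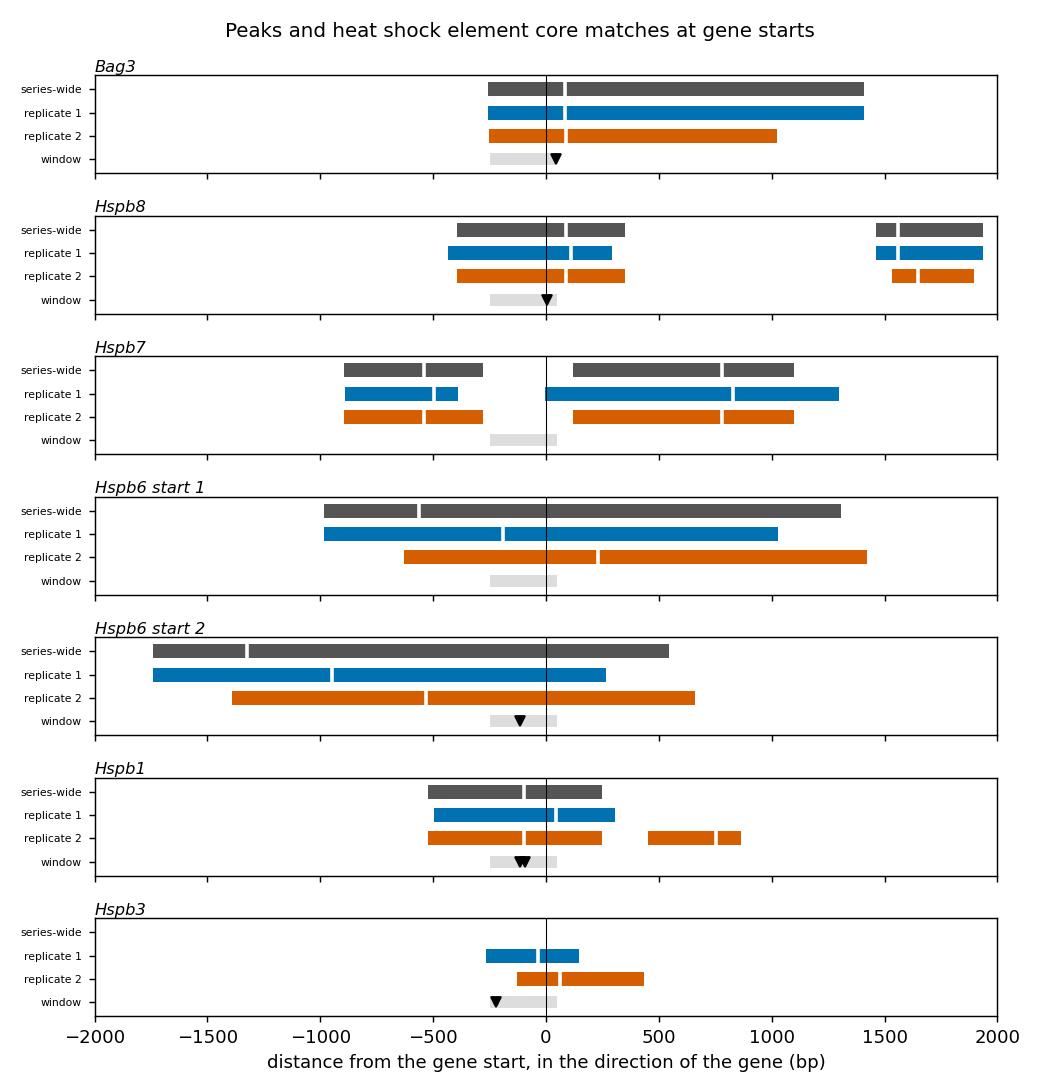
Peaks of the 3 lists around the 7 gene starts in the promoter table, by distance from the start in base pairs in the direction of the gene. Bars are peaks with white ticks at summits, grey bars the 300-base windows and black triangles matches to the heat shock element core. The Bag3 and Hspb8 summits lie just past the start, while the window of Hspb7 falls between 2 series-wide peaks.

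Peaks in the series-wide list lay within 1 kb of a gene end at 6 of the 8 genes, against 34.9% of all protein-coding genes. The 6 were Hspb1, Hspb2, Hspb6, Hspb7, Hspb8 and Bag3. In replicate 1 the count was 7 of 8, against 48.2% of all genes, and in replicate 2 it was 7 of 8, against 50.2%, with Hspb3 added in both. With the gene body and 10 kb on either side counted, all 8 genes had a peak in each list, against 61.1% of all genes in the series-wide list, 72.3% in replicate 1 and 74.1% in replicate 2. Among the 6 genes with a promoter window, 4 had a series-wide peak in it, 6 a replicate 1 peak and 5 a replicate 2 peak, against 32.5%, 43.9% and 45.3% of the 17492 protein-coding genes with such a window. The strongest gene-end peak had a median fold of 21.3 over the 6 genes that had one, against 13.3 over all 7644 protein-coding genes that had one. Hspb2 and Cryab share 1 peak, so the 8 genes are not 8 separate observations. The genes were chosen with earlier results of these data known, so these counts and medians describe them and test nothing.

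The genes fell into an order by gene-end fold that both replicates largely shared. Hspb2 stood first with folds of 56.0 in replicate 1 and 50.1 in replicate 2, followed by Bag3 with 44.0 and 39.0, and the values of this pair of genes did not overlap. The Hspb2 value belongs to a peak that begins beside Hspb2 and has its summit inside the Cryab model, and it is not counted for Hspb2 where the summit must lie within 1 kb. Hspb8 had 18.0 and 22.2, and Hspb7 had 20.0 and 20.4. Hspb8 and Hspb7 did not differ beyond the spread between replicates. Hspb6 had 11.5 and 11.1, and Hspb1 had 10 and 11.1, again with no separation beyond that spread. Hspb3 was lowest with 8.0 and 6.21, below every other gene that had a gene-end peak, and Cryab had none at the ends of its model. The median of all genes with a gene-end peak was 10 in replicate 1 and 10.2 in replicate 2.

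**Figure D2:**
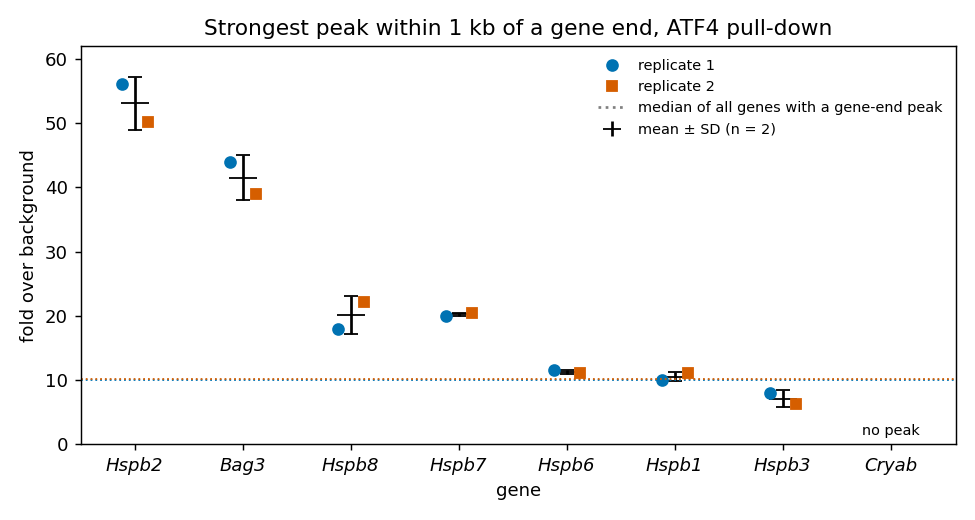
Fold of the strongest peak within 1 kb of a gene end in each replicate (points) with mean and SD over 2 replicates (black), for the 8 genes. Dotted lines are the medians over all protein-coding genes with a gene-end peak, 10 in replicate 1 and 10.2 in replicate 2; Hspb2 and Bag3 stand far above them and Hspb3 below.

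Set among the 7644 protein-coding genes with a series-wide gene-end peak, 49 had a fold above that of the peak beside Hspb2 and 149 above that of Bag3. Hspb8 exceeded 84.8% of these genes and Hspb7 exceeded 81.4%. Hspb6 exceeded 31.0% and Hspb1 28.5%, both in the lower part of the range. Ranked within each replicate they stood near the middle, with 58.5% and 56.0% of genes below Hspb6 and 46.2% and 56.0% below Hspb1 in replicates 1 and 2. The genes closest to Hspb2 by series-wide fold, over this 1 list, were F3 and Rnasek, level with it at 56.0. Tnni3 was 1 of 3 tied genes just above at 56.5, and Lrrc10 was 1 of 2 tied genes just below at 55.9. Tnni3 encodes cardiac troponin I, and F3 encodes tissue factor.

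**Figure D3:**
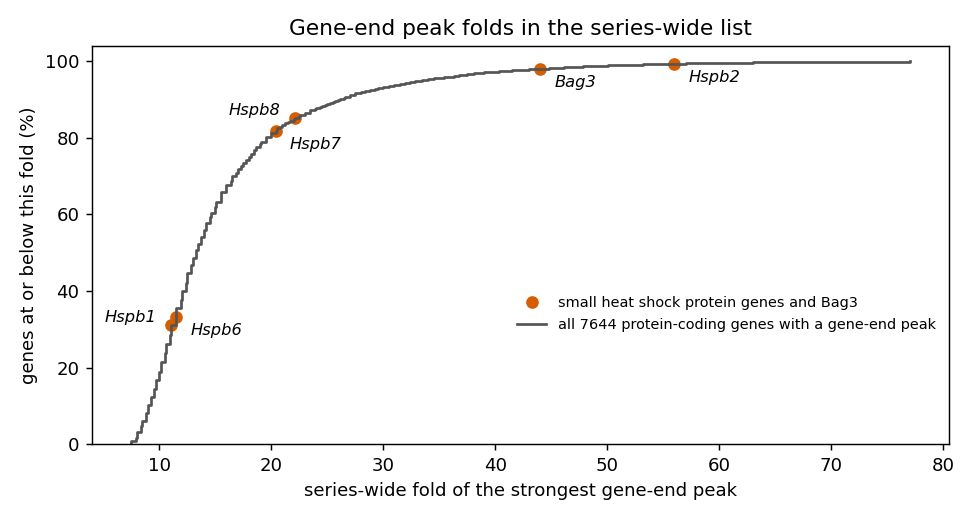
Cumulative share of the 7644 protein-coding genes with a gene-end peak (vertical axis, percent) by the series-wide fold of their strongest gene-end peak (horizontal axis). Orange points mark the 6 small heat shock protein and Bag3 genes with such a peak, with Hspb2 at 56.0 and Bag3 at 44.0 at the upper end and Hspb1 at 11.1 and Hspb6 at 11.5 in the lower part.

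Hspb2 and Cryab lie together on chromosome 9. Cryab encodes alpha B-crystallin, an abundant heart chaperone of desmin, and Hspb2 encodes a muscle protein that binds myotonic dystrophy protein kinase. The pair is known as a head-to-head pair with a short shared regulatory region. The gene table gives Hspb2 as 50751072 to 50752354, and gives Cryab 1 model from 50745951 to 50756636, which includes predicted transcripts and runs through the whole of Hspb2. The table has no strand for this pair and no exons, so the shared region was described from the high-coordinate end of Hspb2 and its far edge at the usual Cryab start was not placed here. Neither gene had an entry in the promoter table.

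A single series-wide peak lay within 10 kb of either gene, from 50752660 to 50754365, 1706 bp wide, with a fold of 56.0. It began 306 bp past the high-coordinate end of Hspb2, and its summit lay 1667 bp past that end, 2615 bp before the high-coordinate end of the Cryab model. Replicate 1 gave the same boundaries with a −log10 value of 178 and a fold of 56.0. Replicate 2 gave 50752717 to 50754243 with a −log10 value of 169 and a fold of 50.1. The summits of the replicates lay 2 bp apart, and the mean fold was 53.0 ± 4.18 (SD, n = 2). The peak covered 16% of the Cryab model and none of the Hspb2 model, and it counts for Hspb2 only because it begins within 1 kb of a gene end. With the summit required within 1 kb, Hspb2 had no gene-end peak and the count over the group was 5, against 32.8% of all genes.

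A second, far lower peak lay over Hspb2 itself in both replicate lists and not in the series-wide list. In replicate 1 it ran from 50751598 to 50752579, covered 59.0% of the Hspb2 model and had a fold of 6.0. In replicate 2 it ran from 50751498 to 50752615, covered 66.8% and had a fold of 7.98. Their summits lay 183 bp and 169 bp inside the high-coordinate end of Hspb2. Only 80 bp in replicate 1 and 101 bp in replicate 2 separated this peak from the strong one, whose fold was 9.33 and 6.28 times as high. On the other side, replicate 2 alone had a peak of 5.76-fold inside the Cryab model, 731 bp beyond the strong peak. It alone also had a peak of 5.32-fold inside 1110032A03Rik, 6825 bp past the Cryab model. Before the low-coordinate end of Cryab both replicates had a peak at the facing ends of Dixdc1 and 2310030G06Rik, which cannot be assigned to one of them. Both also had a peak inside 2310030G06Rik, and all of these were between 5.50-fold and 6.21-fold. The neighbour 1110032A03Rik, 4738 bp past Cryab, had a gene-end peak of 15.5-fold in replicate 1 and 16.8-fold in replicate 2, which lay outside the 10 kb window.

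**Figure D4:**
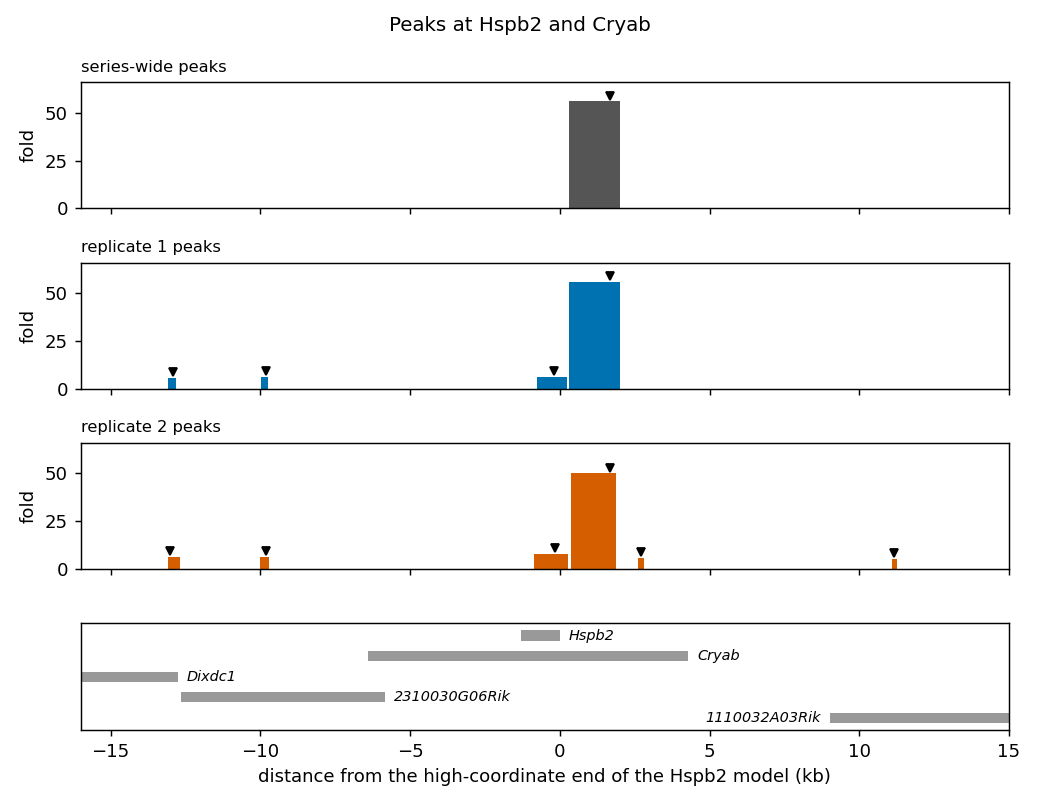
Peaks of the 3 lists (bar height, fold; bar width, peak width; triangles, summits) at Hspb2 and Cryab by distance from the high-coordinate end of the Hspb2 model in kb, with gene models below. The tall peak of 56.0-fold and 50.1-fold stands beside Hspb2 inside the Cryab model, and a low peak of 6.0-fold and 7.98-fold covers Hspb2 in the replicate lists.

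Bag3 (chromosome 7, 128523583 to 128546981) had more peaks than any of the small heat shock protein genes. The series-wide list held 7 peaks within 10 kb, of which the first spanned the gene start and the other 6 lay inside the gene, against a median of 1 over all protein-coding genes, and 4.83% of genes had as many or more. The window grows with gene length, and Bag3 is the longest of the 8 models. The peak at the start ran from 128523327 to 128524991 and covered the whole promoter window. It had folds of 44.0 in replicate 1 and 39.0 in replicate 2, a mean of 41.5 ± 3.53 (SD, n = 2). The summits in replicates 1 and 2 lay 84 bp and 89 bp after the gene start.

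Inside Bag3 a second strong peak lay at 128537601 to 128538574, with folds of 38.0 and 38.6 (mean 38.3 ± 0.397, SD, n = 2) and a summit 14274 bp after the start. In replicate 2 the internal peak of 38.6-fold differed little from the 39.0-fold of the peak at the start. Another, at 128529283 to 128530171, had folds of 21.0 and 22.6. The other 4 internal peaks had series-wide folds of 9.50 to 16. Replicate 1 held 15 peaks in the gene window and replicate 2 held 17. The 3 of replicate 2 that lay past the end of the gene, from 5.32-fold to 8.87-fold, had no partner in replicate 1.

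**Figure D5:**
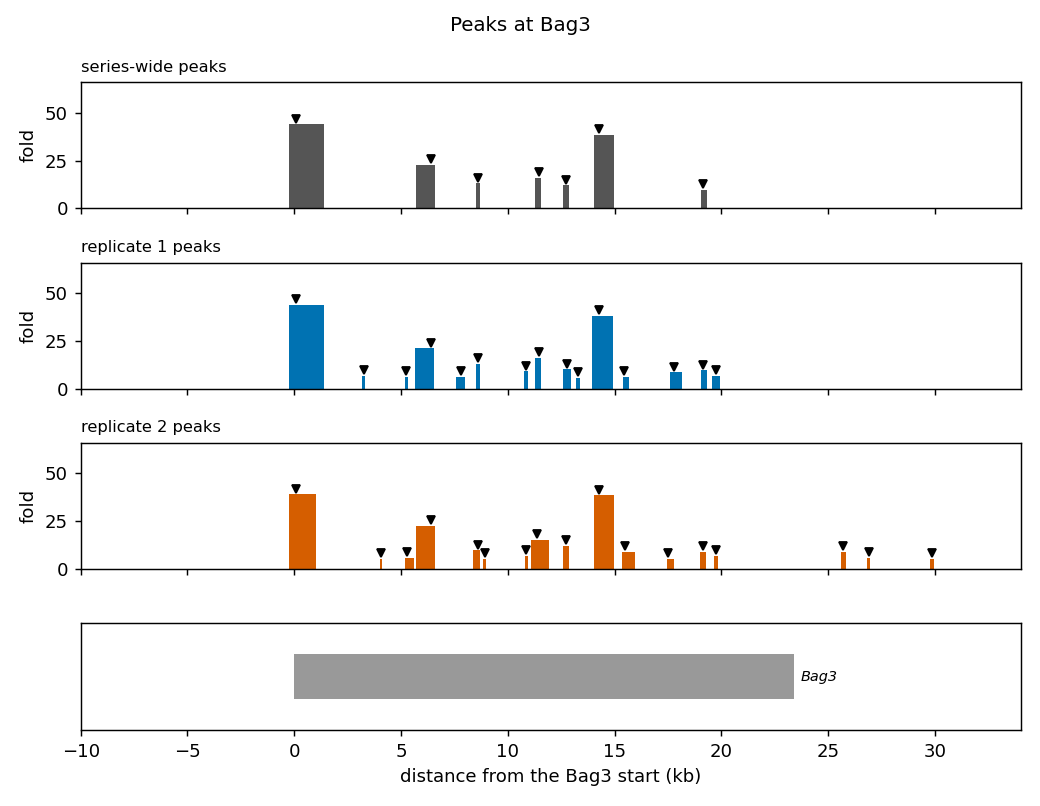
Peaks of the 3 lists (bar height, fold; bar width, peak width; triangles, summits) by distance from the Bag3 start in kb, with the gene model below. The peaks at the start and about 14 kb inside the gene are the tallest in each list, and the remaining 5 series-wide peaks are lower.

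Hspb8, whose product works as the direct partner of BAG3, lies on chromosome 5 from 116408491 to 116422864 on the minus strand. Its start carried a peak from 116422517 to 116423259 with folds of 18.0 and 22.2 (mean 20.1 ± 2.94, SD, n = 2). The summits in replicates 1 and 2 lay 109 bp and 90 bp after the gene start. The lncRNA gene Gm42009 lies 129 bp away on the other side, so this peak also lies at its end. A further series-wide peak 1561 bp inside Hspb8 had folds of 10.5 and 7.54. Just past the far end of the gene both replicates had a low peak, 6.0-fold and 7.09-fold, that the series-wide list lacks. The lncRNA gene Gm36841, which overlaps Hspb8, had gene-end folds of 6.50 and 6.65.

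Hspb7 encodes the cardiovascular small heat shock protein, an abundant binder of actin and filamin in heart muscle. It lies on chromosome 4 from 141420779 to 141425310 on the plus strand and was the only one of the 8 genes with series-wide peaks at both ends. The strongest, at 141420898 to 141421875, began past the end of the promoter window in the series-wide list and had folds of 20.0 and 20.4 (mean 20.2 ± 0.275, SD, n = 2). Another, before the start at 141419886 to 141420499, had folds of 7.5 in replicate 1 and 13.3 in replicate 2, so its height was less alike between replicates than that of the peak inside the gene. The 300-base promoter window lay between them and held no base of a series-wide or replicate 2 peak, and 56 bases of a replicate 1 peak. Just past the gene, a broad series-wide peak of 2230 bp at 141425514 to 141427743 had folds of 15.5 and 16, and each replicate list held it as 2 peaks, of which the other had 6.0-fold and 7.54-fold. Both replicates also had a peak in the middle of the gene, 13.5-fold in replicate 1 and 7.54-fold in replicate 2, that the series-wide list lacks. The neighbour Srarp had no gene-end peak.

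Hspb6 encodes a small heat shock protein that is phosphorylated under beta-adrenergic stimulation and protects heart muscle cells. It lies on chromosome 7 from 30552535 to 30555443 on the plus strand. Its peak was the widest of the group at 2290 bp (30551558 to 30553847), covered both of its starts and 45.1% of the gene model, and had folds of 11.5 and 11.1 (mean 11.3 ± 0.296, SD, n = 2). The summits of the replicates lay 420 bp apart, against a median of 33 bp over the 20 peaks of the group. The same peak lies at the end of Proser3, 142 bp away, and over the miRNA gene Gm38670 inside Hspb6, so it cannot be assigned to one of them. A second peak, 10-fold and 10.2-fold, lay at the far end of the neighbour Lin37. Psenen and U2af1l4, which overlap, shared a peak of 9.50-fold in replicate 1 and 7.09-fold in replicate 2, and Igflr1 had none.

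Hspb1 encodes the stress-induced small heat shock protein that caps actin filaments. It lies on chromosome 5 from 135887919 to 135889563 on the plus strand, with no other gene model within 10 kb. The peak at its start, 135887398 to 135888164, had folds of 10 and 11.1 (mean 10.5 ± 0.764, SD, n = 2), and in the series-wide list it was the lowest of the 4 peaks around Hspb1. In replicate 2 it was higher than 2 of the other 3. The summit in replicate 2 was position 135887822, the first base of the second GAANNTTC match printed above, and the summit in replicate 1 lay 142 bp further on, 45 bp after the start. The other peaks lay 9600 bp and 7696 bp before the gene and 8420 bp after it. The first of them, at 135877679 to 135878319, had folds of 20.0 and 18.6 (mean 19.3 ± 0.979, SD, n = 2). The peak after the gene had 16.5-fold in replicate 1 and 8.42-fold in replicate 2.

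Hspb3, whose product forms a complex with HSPB2 in muscle, lies on chromosome 13 from 113662896 to 113663676 on the minus strand, inside the lncRNA gene Gm34586. It had no series-wide peak at a gene end. Both replicates nevertheless had a peak over its start, at 113663529 to 113663942 with 8.0-fold in replicate 1 and at 113663244 to 113663803 with 6.21-fold in replicate 2 (mean 7.10 ± 1.27, SD, n = 2). The lowest fold in the series-wide list was 7.5. The only series-wide peak near Hspb3 lay 2.01 kb past its end, with folds of 8.0 and 8.87, at the end of Gm34586. The next series-wide peak was 23.5 kb from the gene, outside the window, with a fold of 30.6.

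Over the group, 20 distinct series-wide peaks lay within 10 kb of a member, and each of the 20 had a peak in both replicate lists. The series-wide list is named as one of peaks reproduced between replicates, which favours such a share. With only peaks found in both replicate lists kept, 60.1% of all protein-coding genes had a series-wide peak within 10 kb, against 61.1% with all. The trait is therefore not particular to these genes. Of the 20 peaks, 10 were higher in replicate 1 and 10 in replicate 2. Their median width was 689.5 bp, against 441 bp for all series-wide peaks, and 4 of the 20 were over 1 kb wide, against 8.10% of all. Their median fold was 14.6, against 13.7 for all. The 20 peaks were taken for lying near genes and the whole list was not, so unlike sets are compared. Widths and folds were not computed for peaks near other genes. The farthest peak inside the 10 kb limit was that at 9.60 kb from Hspb1, and the nearest outside it was the 16.8-fold peak 11.3 kb from Cryab.

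The gene lists below were also chosen with earlier results of these data known, so their counts are only a description. Genes that work with the small heat shock proteins were counted over whole lists, beside the background of 34.9% of all protein-coding genes with a series-wide gene-end peak. Of 10 genes of chaperone-assisted selective autophagy, 9 had one, and all 10 did in each replicate, where the background was 48.2% and 50.2%. Dnajb6, an Hsp40 co-chaperone gene, had 33.2 ± 3.15 fold (SD, n = 2). The inducible Hsp70 genes Hspa1a and Hspa1b had 31.3 ± 1.67 and 30.3 ± 4.57 fold (SD, n = 2); as near-identical copies, their values are uncertain. Synpo2, which encodes a Z-disc partner of BAG3, had 23.2 ± 0.348 fold (SD, n = 2). Flnc, the filamin C gene and a client of this route, alone in this list and the client list lacked a series-wide gene-end peak. Its replicate gene-end folds were 9.0 and 7.98, and the strongest of its 4 series-wide peaks within 10 kb had 29.0-fold.

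Of the other 5 BAG family genes, 3 had a series-wide gene-end peak. Bag1 had 18.0 ± 3.53 fold, Bag6 13.6 ± 1.5 and Bag5 10.3 ± 0.216 (SD, n = 2), all under Bag3 in both replicates. Of 4 further genes listed with the small heat shock protein genes, Hspb11 had a gene-end peak of 10-fold in replicate 1 and 8.42-fold in replicate 2. Whether the product of Hspb11 has the alpha-crystallin domain was not checked. Hspb9, known mainly from testis, had gene-end peaks of 7.5-fold and 8.87-fold in the replicate lists alone. The stronger of its 2 series-wide peaks within 10 kb had 22.5-fold. Cryaa, the lens partner of Cryab, and Odf1, a sperm tail gene, had no series-wide peak within 10 kb. None of the 3 heat shock factor genes had a series-wide gene-end peak. All 3 had a series-wide peak within 10 kb, against 61.1% of all genes. The strongest had 27.5-fold at Hsf1, 11.5-fold at Hsf2 and 7.98-fold at Hsf4. Hsf1 had 9.50-fold and 7.09-fold and Hsf4 had 5.50-fold and 6.65-fold in the replicate lists.

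Of 6 client and cytoskeletal genes, 5 had a series-wide gene-end peak. Actc1, the cardiac actin gene, had 55.6 ± 8.38 fold, Myh6 52.6 ± 9.79 and Ttn, the titin gene, 27.7 ± 4.68 (SD, n = 2). Actc1 and Myh6 are also among the cardiomyocyte markers counted above, so their values are not separate from that check. Vim had 9.79 ± 1.83 fold and Des, which encodes the main intermediate filament client of alpha B-crystallin, had 8.85 ± 1.91 (SD, n = 2). The folds of Des, 7.5 in replicate 1 and 10.2 in replicate 2, were far below the 56.0 and 50.1 beside Hspb2.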

How the data were processed

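Peak lists of 2 ATF4 pull-down samples and of the series were used (3 lists); 0 value columns were left unmapped. The submitters' processing notes list Bowtie2, MACS2, deepTools and mm10; versions are not given in the sources used here. The series-wide list gives a fold (a ratio) and a summit offset per peak, as deposited by the authors. The authors' replicate lists hold a summit and a −log10 value per peak, of a p-value or of a q-value, and which is unsettled. Replicate starts count from 1 and series-wide starts from 0, tested by matching peaks with equal coordinates (17414 and 21047); these tied each −log10 value to 1 fold, and the 4 and 5 lowest values were continued in steps of 0.500 and 0.443, with 2 and 9 values filled between steps. Folds were not scaled between replicates. In all 20 peaks near the genes, the series-wide fold was the higher of both replicates, so replicate values are given.

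A peak counted in a window when at least 1 bp overlapped. RefSeq genes and promoters are of GRCm38.p6. Named genes were the 8 members, their neighbours within 10 kb, up to 4 genes with a gene-end peak of each list and the genes ranked next to Hspb2; genes named outside this were chosen after their values were seen, and 1 neighbour is not reported here. The 8 genes and the lists (44 entries, all matched) were chosen with earlier results of these data known. Overlap code was tested on simulated data. Alternatives were other overlaps, windows, peak thresholds, lists and backgrounds. Python 3.11.15, NumPy 2.4.6, pandas 2.3.3 and Matplotlib 3.10.9 were used.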

Additional observations from a re-analysis of the deposited data

How the results depend on the processing

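The counts of genes with a series-wide peak at a gene end (6) and within 10 kb (8) stayed within 1.5 times under all alternatives but the upper 20% of peaks by fold, where 3 genes (Hspb2, Hspb8 and Bag3) and 4 genes remained, against 5.66% and 21.0% of all protein-coding genes. The median gene-end fold of 21.3 was 33.1 when peaks were limited to the upper 50% by fold and 44.0 with the upper 20%. The all-gene median of 13.3 became 18.5 and 28.0, since fewer and higher peaks enter the medians. In the replicate 1 list alone the median was 18.0, and in the replicate 2 list alone it was 20.4. Both cover 7 genes, with Hspb3 added, beside all-gene medians of 10 and 10.2. With the summit or at least 50% of the peak inside the window, 5 genes had a gene-end peak, against 32.8% and 33.1% of all, since the peak beside Hspb2 then fell out. A window of 500 bp gave 6 genes and one of 5000 bp gave 8, against 31.8% and 47.4% of all. Gene starts alone gave 5 of the 6 genes with a listed start, against 35.4%; 5 of these 6 had a peak at either end, against 35.6%, an alternative chosen after seeing the data. No paired analysis was possible because the results come from no test and the input samples gave no values here. The lists hold no read counts, so counting error is not given.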

Other observations

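Near the 8 genes, 16 of the 42 peaks of replicate 1 overlapped a replicate 2 peak but no series-wide peak. Among them were the peaks over Hspb2, over the start of Hspb3 and inside Hspb7. A further 5 of the 42 peaks of replicate 1 and 13 of the 50 peaks of replicate 2 overlapped no peak of another list. These shares were not counted over all peaks of the lists, so whether the genes here differ from the rest cannot be told. The highest replicate 1 fold without a series-wide peak was 13.5, inside Hspb7, above the 7.5 that is the lowest fold in the series-wide list.

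Hspb3 lies near the place where the replicate lists end on chromosome 13. The last peak of replicate 1 on this chromosome ended at 114344540, 681 kb past Hspb3, and that of replicate 2 at 114363886, 700 kb past it. The series-wide list went on to 120321688, with 52 peaks past the last replicate peak. On chromosomes 4, 5, 7 and 9, which hold the other genes, 0 series-wide peaks lay past the last replicate peak.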
